A study of Homo sapiens with 51 samples.

Results

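The 10 genes described here encode enzymes that cut or crosslink the extracellular matrix and the inhibitors of those enzymes. They are the matrix metalloproteinases MMP1, MMP2 and MMP14, their tissue inhibitors TIMP1, TIMP2 and TIMP3, the proteases FAP and ADAMTS2, and the lysyl oxidases LOX and LOXL2. They were taken by symbol from a table of 24033 genes, and all 10 were among the 19007 genes present in every library. The cells were HMLE, an immortalised human mammary epithelial line, and HMLE-TWIST1, the same line overexpressing TWIST1, a transcription factor that drives epithelial to mesenchymal transition. Total RNA was sequenced from 51 libraries in 17 groups of 3. Chaetocin, a fungal compound used to inhibit SUV39H1 and SUV39H2, enzymes that methylate lysine 9 of histone H3, was given only to HMLE-TWIST1 cells.

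Day 2 groups of the drug experiment had 48 h of DMSO (both lines) or of chaetocin at 100, 150, 200 or 500 nM. Day 4 groups had 15 h of DMSO (both lines) or of 80 nM chaetocin, followed by 48 h without it, called washout here. In the other experiment both lines received interfering RNA duplexes against SUV39H1 and SUV39H2 (knockdown) or a scrambled duplex (scramble), and were harvested after 48 h (day 2) or after a further 48 h in fresh medium (day 4). The sources used here do not name the promoter behind TWIST1 or say whether the line is 1 clone. The labels do not state that replicates came from separate cultures, and p-values here then reflect the spread among these libraries alone, which may be technical.

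Matrix turnover depends on the balance of these products. MMP1 is a collagenase that cuts fibrillar collagen, MMP2 is a gelatinase, and MMP14 is a membrane-bound protease that activates the MMP2 precursor at the cell surface with the help of TIMP2. The TIMP proteins block metalloproteinases, and TIMP3 is the one held in the matrix. FAP is a serine protease of activated fibroblasts, ADAMTS2 removes the amino-terminal propeptide of procollagens, and LOX and LOXL2 oxidise lysines so that collagen and elastin chains become crosslinked.

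ADAMTS2 was at or near 0 reads in HMLE and high in HMLE-TWIST1, and TIMP3 was lower in HMLE-TWIST1 in all 4 comparisons of the lines, so the 250 bases before their transcription starts are shown from RefSeq (GRCh38.p14), each 5′ to 3′ on the gene's strand with CpG dinucleotides in capitals. The window of ADAMTS2 lies at chr5:179345462-179345711 on the minus strand and that of TIMP3 at chr22:32801455-32801704 on the plus strand.
ADAMTS2: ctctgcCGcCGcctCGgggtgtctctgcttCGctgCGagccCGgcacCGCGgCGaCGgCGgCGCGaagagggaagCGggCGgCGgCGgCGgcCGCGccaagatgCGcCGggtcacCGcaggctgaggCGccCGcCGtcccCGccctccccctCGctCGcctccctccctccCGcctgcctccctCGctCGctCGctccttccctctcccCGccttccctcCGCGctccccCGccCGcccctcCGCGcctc
TIMP3: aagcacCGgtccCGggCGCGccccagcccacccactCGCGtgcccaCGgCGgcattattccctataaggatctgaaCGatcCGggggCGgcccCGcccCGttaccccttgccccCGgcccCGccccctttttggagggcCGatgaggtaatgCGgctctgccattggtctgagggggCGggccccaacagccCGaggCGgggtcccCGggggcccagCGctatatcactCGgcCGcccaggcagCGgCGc
The ADAMTS2 window held 40 CpG and the TIMP3 window 26, against a median of 11 (quartiles 3 and 23) over 35116 promoter windows of the same length. Promoter windows were kept for 5 of the 10 members, and any window of LOXL2 was left out before this count. The other kept windows held 7 CpG (MMP14), 12 (TIMP1) and 13 to 19 (the 3 start sites of LOX). The AP-1 motif TGAGTCA, searched on both strands, was in none of these windows and in 4.2% of all windows. The E-box CACCTG, on both strands, was found once, at a single site shared by the overlapping windows of the downstream LOX starts, and in 17.5% of all windows.

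Between 7897060 and 15662385 reads per library fell in the genes of the table, and levels are given as CPM (reads scaled to a common library size). TWIST1 stood at 5.10 to 14.0 CPM in the 6 HMLE groups and 234 to 609 CPM in the 11 HMLE-TWIST1 groups (group means). After knockdown the log2 fold changes were -0.88 to -1.40 for SUV39H1 and -0.42 to -1.20 for SUV39H2 in the 2 lines and days, and all passed. Both lines are labelled as mammary gland epithelial cells, but the summed level of 6 epithelial markers was 5180 to 12110 CPM in HMLE libraries and 1.56 to 12.03 CPM in HMLE-TWIST1 libraries. The 5 mesenchymal markers summed to 755 to 3278 CPM in HMLE and 5508 to 30020 CPM in HMLE-TWIST1. Such a sum follows its most abundant genes, and single markers are not given here. Leukocyte markers (3 of 5 in the table) summed to at most 9.66 CPM and endothelial markers (4 of 5) to at most 10.4 CPM in any library. In bulk RNA, fewer cells of a type and less RNA per cell cannot be told apart.

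**Figure D1:**
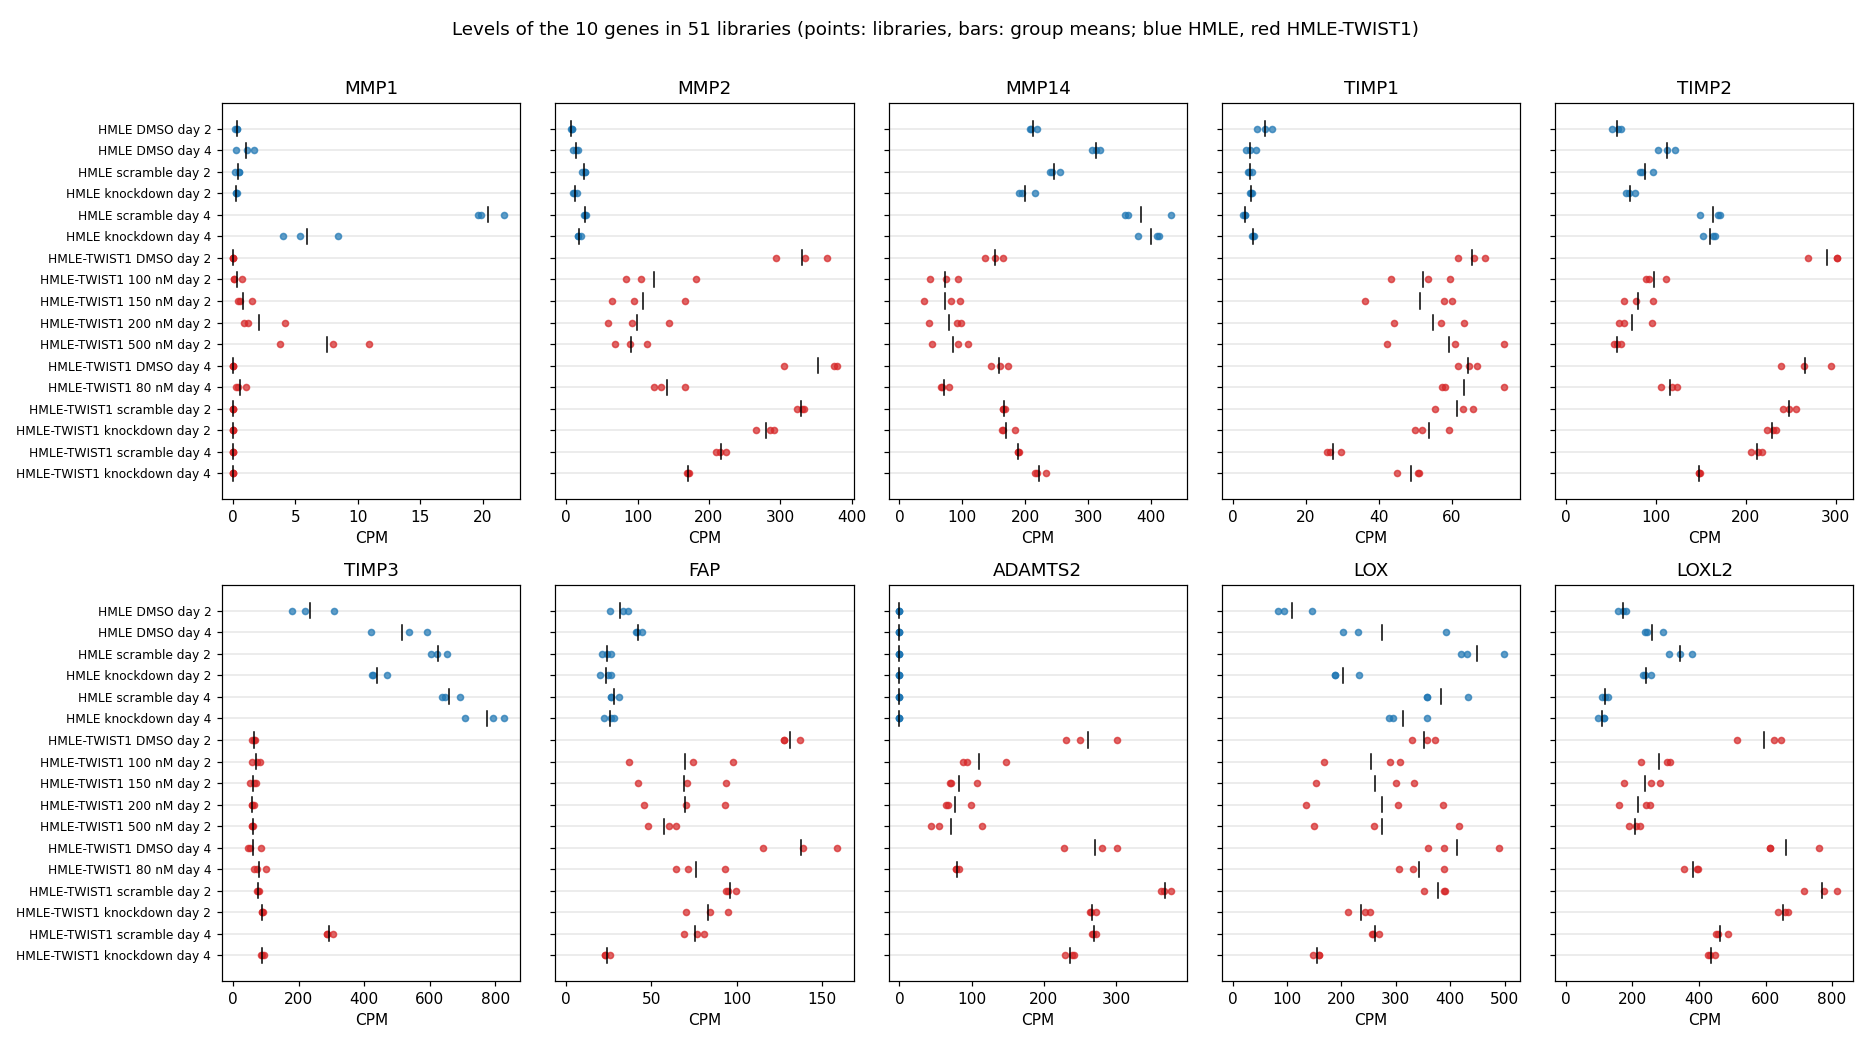
Level (CPM, horizontal axis, linear and scaled per gene) of each gene in the 17 groups; points are libraries, black bars are means of 3, blue is HMLE and red is HMLE-TWIST1. ADAMTS2 and MMP2 were higher in each HMLE-TWIST1 group than in any HMLE group, TIMP3 was highest in HMLE knockdown cells of day 4 (mean 776 CPM), and MMP1 was highest in HMLE scramble cells of day 4 (mean 20.4 CPM).

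The first question was how the genes differ between the epithelial line and its TWIST1 derivative without drug or knockdown. HMLE-TWIST1 cells had more MMP2, TIMP1, TIMP2, FAP, ADAMTS2 and LOXL2 RNA and less TIMP3 RNA than HMLE in all 4 control comparisons (limma, Benjamini-Hochberg adjusted p below 0.05 over all genes tested). In DMSO at day 2, 7 of the 10 genes were higher and 2 lower, where 47.2% of all genes tested passed. The lower ones were TIMP3 and MMP1, and MMP1 passed the read filter only through chaetocin libraries in the same fit. At day 4 in DMSO the counts were 6 and 3 of 10 (67.1% of all genes). In scramble cells they were 6 and 3 of the 9 tested at day 2 (68.9% of all genes) and 6 and 4 of 10 at day 4 (74.4% of all genes). The median log2 fold changes of the tested members were 1.93, 1.30, 1.50 and 0.91 in that order, beside 0.02, 0.04, -0.004 and 0.01 over all genes.

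Among the proteases, ADAMTS2 separated the lines completely. It had 0 reads in 17 of the 18 HMLE libraries and 1 read in replicate 1 of DMSO day 4. In HMLE-TWIST1 it stood at 301, 249.6 and 231 CPM in DMSO at day 2 and at 376, 366.5 and 362 CPM in scramble at day 2. With 3 reads over the 3 HMLE libraries taken as the floor, it was at least 3481-fold higher in DMSO at day 2, 4290-fold in scramble at day 2 and 2767-fold in scramble at day 4. At day 4 in DMSO the ratio to the single HMLE read was 7763, with a 95% interval of 1393 to 306700 from counting error only.

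MMP2 stood at 6.28, 7.75 and 7.62 CPM in HMLE DMSO cells of day 2 and at 294, 365 and 334 CPM in HMLE-TWIST1, and the groups did not overlap. Its log2 fold change was 5.49 (SE 0.36, adjusted p = 5.55e-09, n = 3 libraries per line). The difference was 4.71 (SE 0.21) in DMSO at day 4, 3.73 (SE 0.12) in scramble at day 2 and 3.01 (SE 0.08) in scramble at day 4. FAP was higher by 2.06 (SE 0.34, adjusted p = 0.000118) in DMSO at day 2, from 36.1, 33.3 and 25.5 CPM to 127.5, 137 and 128 CPM, and by 1.44 to 2.02 in the other 3 comparisons.

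MMP14, which acts on the MMP2 precursor, was lower in HMLE-TWIST1 in 3 of the 4 comparisons. HMLE cells held 219, 209.7 and 207 CPM in DMSO at day 2 against 152, 165 and 137 CPM in HMLE-TWIST1, a difference of -0.49 (SE 0.36, adjusted p = 0.29) that passed with only these groups in the fit (adjusted p = 0.000139) and in the deposited log2 RPKM (0.0007). The difference was -0.98 (SE 0.08, adjusted p = 4.5e-08) in DMSO at day 4, -0.57 (SE 0.06) in scramble at day 2 and -1.02 (SE 0.06) in scramble at day 4. All 3 libraries of HMLE-TWIST1 were below all 3 of HMLE in each of the 4 comparisons.

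MMP1 had 0 reads in all 18 libraries of the 6 HMLE-TWIST1 groups without chaetocin. HMLE libraries held 5, 3 and 4 reads in DMSO at day 2 and 209, 225 and 193 reads (19.8, 19.7 and 21.7 CPM) in scramble at day 4. Over a floor of 3 reads per HMLE-TWIST1 group, with the HMLE reads taken as exact, HMLE was 272-fold higher in scramble at day 4. In DMSO at day 4 it was 12.7-fold higher on the same terms. There MMP1 passed the read filter only through HMLE replicates 2 and 3 and replicate 3 of the 80 nM chaetocin libraries. In DMSO at day 2 (limma, adjusted p = 0.0473, 3.60-fold over the same floor) the call was lost with any 1 of the 6 libraries left out (adjusted p 0.0677 to 0.125). It was also lost with median-of-ratios size factors (0.0506) and with precision weights (0.0801). The 2 groups of that comparison held 12 and 0 reads, and MMP1 was tested there only because chaetocin libraries in the same fit passed the read filter. In scramble at day 2, a fit without chaetocin libraries, MMP1 was too low to be tested, with 13 reads in the HMLE group.

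The 3 inhibitors did not move together. TIMP1 stood at 10.7, 6.65 and 8.76 CPM in HMLE and 69.1, 61.6 and 66.1 CPM in HMLE-TWIST1 in DMSO at day 2 (log2 fold change 2.91, SE 0.23, adjusted p = 9.83e-09), and was higher by 3.01 to 3.72 elsewhere. TIMP2 was higher by 2.36 (SE 0.16, adjusted p = 1.33e-09) there, at 301, 302 and 269 CPM against 57.6, 51.1 and 61.3, and by 0.38 (SE 0.06, adjusted p = 1.12e-05) in scramble at day 4. TIMP3 was lower in HMLE-TWIST1, at 62.9, 59.4 and 68.0 CPM against 307, 221 and 179 in DMSO at day 2 (-1.86, SE 0.17, adjusted p = 3.98e-08). The TIMP3 difference was -3.09 (SE 0.26) in DMSO at day 4, -3.03 (SE 0.05) in scramble at day 2 and -1.17 (SE 0.06) in scramble at day 4.

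The crosslinkers differed in how steady the contrast was. LOXL2 was higher in HMLE-TWIST1 in all 4 comparisons, by 1.80 (SE 0.19), 1.36 (SE 0.09), 1.16 (SE 0.07) and 1.99 (SE 0.07), with 647, 515 and 625.5 CPM against 182, 171 and 158 in DMSO at day 2. LOX was higher in DMSO at day 2 (1.74, SE 0.43, adjusted p = 0.00384), at 329, 371 and 358 CPM against 146, 94.7 and 84.2. In DMSO at day 4 the groups overlapped (0.63, SE 0.25, adjusted p = 0.0568), and without HMLE replicate 1, which held 392 CPM where the others held 202 and 231, the difference was 0.92 (adjusted p = 0.000137). It also passed with a prior count of 0.5 (0.0486) and in the deposited log2 RPKM (0.0314). In scramble cells LOX was lower in HMLE-TWIST1, with -0.25 (SE 0.09, adjusted p = 0.0268) at day 2 and -0.54 (SE 0.08, adjusted p = 1.11e-05) at day 4. The day 2 call was lost without HMLE scramble replicate 2 (0.116), without HMLE-TWIST1 scramble replicate 3 (0.0961), and in the deposited log2 RPKM (0.0996).

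**Figure D2:**
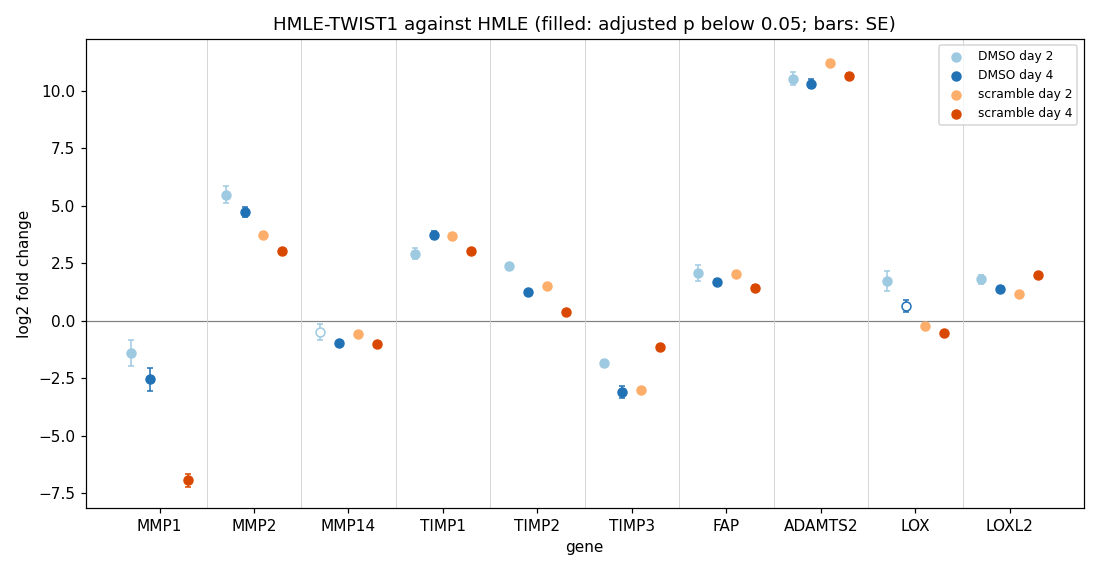
Log2 fold change (vertical axis) of HMLE-TWIST1 over HMLE for each gene in 4 control comparisons, with the SE of the fit as bars and filled points where the adjusted p is below 0.05; MMP1 has no value in scramble at day 2. ADAMTS2 lies above 10 in each, a fitted size set by the prior count, while TIMP3 lies between -3.09 and -1.17.

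Levels per gene length can be set side by side within a group. In HMLE scramble cells of day 2 the deposited RPKM was highest for TIMP3 (126.6 ± 3.30, SD, n = 3), then LOX (76.5 ± 6.34), LOXL2 (56.1 ± 4.70) and MMP14 (51.3 ± 2.83), of which LOXL2 and MMP14 overlapped within their spread. In HMLE-TWIST1 scramble cells of day 2 LOXL2 led with 130.0 ± 9.42 RPKM, followed by LOX (66.5 ± 4.12), MMP2 (64.4 ± 1.14), ADAMTS2 (46.2 ± 1.16), TIMP2 (42.5 ± 1.51) and MMP14 (35.8 ± 0.602). LOX and MMP2 did not differ there beyond their spread. TIMP3, at 16.1 ± 0.668 RPKM, ranked above only FAP (13.2 ± 0.478) and MMP1 in those cells.

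Chaetocin for 48 h was compared with DMSO in HMLE-TWIST1 cells. MMP2, MMP14, TIMP2, FAP, ADAMTS2 and LOXL2 fell at every dose, and MMP1 rose at 150, 200 and 500 nM. TIMP1, TIMP3 and LOX did not pass at any dose. At 100 nM 0 members were higher and 6 lower, where 23.3% of all genes passed and 11.0% passed as lower. At 150, 200 and 500 nM 1 member was higher and 6 lower. The higher one, MMP1, passed the read filter only through chaetocin libraries. Of all genes 33.8%, 39.4% and 50.2% passed at these doses, and 15.4%, 17.7% and 23.1% passed as lower. The median of the 10 was -1.05 at 100 nM and -1.05 at 500 nM, beside 0.02 and 0.05 over all genes. The dose libraries and the DMSO libraries lack different sets of genes in the deposited table. They were taken from this as separately processed parts, which the labels do not name. Batch and treatment then cannot be told apart from those libraries alone.

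TIMP2 fell against DMSO at each dose and again from 100 to 500 nM. DMSO libraries held 301, 302 and 269 CPM, those of 100 nM 92.2, 89.3 and 111 CPM, and those of 500 nM 61.2, 53.9 and 56.5 CPM. Its log2 fold changes against DMSO were -1.58, -1.88, -2.01 and -2.34 (SE 0.16 each, adjusted p = 4.63e-08 at 500 nM, n = 3 libraries per group). ADAMTS2 fell from the DMSO values given above to 115, 55.5 and 43.6 CPM at 500 nM (-1.99, SE 0.30, adjusted p = 5.71e-05). MMP2 stood at 68.8, 89.5 and 113 CPM at 500 nM (-1.89, SE 0.36, adjusted p = 0.0006), still above every HMLE library of the DMSO groups.

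LOXL2 fell, with -1.09 at 100 nM and -1.52 at 500 nM (SE 0.19, adjusted p = 7.18e-06), where it held 190.3, 223 and 210.1 CPM. FAP fell by 1.20 at 500 nM (SE 0.34, adjusted p = 0.00904), to 47.7, 60.4 and 64.3 CPM. MMP14 fell, with -1.12 at 100 nM (SE 0.36, adjusted p = 0.0356) and -0.90 at 500 nM (adjusted p = 0.0475). LOX was at 149, 260.2 and 416 CPM at 500 nM, around its DMSO values of 329, 371 and 358 (-0.48, SE 0.43, adjusted p = 0.38), and its replicates spread more than those of any DMSO group of HMLE-TWIST1. TIMP1 (-0.19, SE 0.23, adjusted p = 0.517) and TIMP3 (-0.08, SE 0.17, adjusted p = 0.711) overlapped with DMSO at 500 nM. At 100 nM, without passing, LOX (168 to 308 CPM) and TIMP1 (43.2 to 59.6 CPM) lay below all their DMSO libraries (TIMP1 61.6 to 69.1 CPM). TIMP1 also did at 150 nM (36.3 to 60.0 CPM).

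MMP1 came up from 0 reads. Libraries of replicates 1, 2 and 3 held 1, 8 and 1 reads with the 100 nM dose and 5, 17 and 6 reads with 150 nM. They held 14, 42 and 8 reads with 200 nM, and 41, 111 and 84 reads with 500 nM. Over a floor of 3 reads in the DMSO group, with the dose reads taken as exact, the ratios were 3.79, 10.4, 25.2 and 91.0. Adjusted p-values (limma) were 0.00354 for 150 nM, 0.000188 for 200 nM and 1.51e-06 for 500 nM. The 100 nM dose missed the threshold (0.131, or 0.0156 with a prior count of 0.5). MMP1 was tested in this fit only because chaetocin libraries, where it is high, passed the read filter. These p-values are therefore no separate support for the rise. At 500 nM the level was 7.56 ± 3.60 CPM (SD, n = 3), below the 20.4 ± 1.14 CPM of HMLE scramble cells of day 4. These levels come from different inferred parts of the table.

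Replicate 1 of the dose libraries stood apart for several genes. It was the lowest of 3 at each dose for MMP2, MMP14, TIMP1, FAP, LOX and LOXL2 and the highest for ADAMTS2, for example at 168 CPM of LOX at 100 nM where the others held 289 and 308. With those 4 libraries left out, a choice made after seeing the data, the number of members passing against DMSO was still 6, 7, 7 and 7, where 23.5%, 34.2%, 40.6% and 54.2% of all genes passed. The MMP14 and FAP calls rested on few libraries. At 100 nM both were lost with any 1 of the DMSO libraries or of replicates 1 and 2 left out (adjusted p up to 0.148 and 0.197), as was FAP at 150 nM (up to 0.166) and 200 nM (up to 0.159) and MMP14 at 500 nM (up to 0.205). MMP14 at 150 nM was lost when DMSO replicate 1 (0.0572), DMSO replicate 2 (0.0669) or the first dose replicate (0.116) was left out, and with 200 nM when any DMSO library or replicate 1 was (up to 0.177). FAP at 100 nM also missed with only its 2 groups in the fit (0.0813), and MMP14 at 500 nM missed with median-of-ratios scaling (0.0575) and without the filter on low reads (0.0521).

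Neighbouring doses lay in the same inferred part, and for them limma called 0 of the 10 members and 0 of all genes (0.00%). At the 3 steps 800, 281 and 1375 genes had an unadjusted p below 0.05. From 100 to 500 nM MMP1 rose by 4.13 (SE 0.56, adjusted p = 0.00156) and TIMP2 fell by 0.76 (SE 0.16, adjusted p = 0.0065), while 16.6% of all genes passed. Here too MMP1 was tested only through libraries of doses above 100 nM. With the replicate number as a block ADAMTS2 also passed (-0.71, adjusted p = 0.00854), and 24.2% of all genes did. Same-numbered dose libraries deviated together. With the dose libraries alone and the replicate number as a block, a fit chosen after seeing the data, 5 members passed from 100 to 500 nM, adding MMP2 (-0.40, adjusted p = 0.0113), ADAMTS2 (-0.71, 0.00133) and LOXL2 (-0.42, 0.00266). The share of all genes passing rose as well, to 33.8%. In that fit MMP1 also passed from 200 to 500 nM (1.94, adjusted p = 0.0299), where 0.355% of all genes did. Without replicate 1 of every dose 4 members and 22.4% of all genes passed from 100 to 500 nM, ADAMTS2 (-0.88, 0.00194) and LOXL2 (-0.51, 0.00679) among them, and ADAMTS2 passed without 500 nM replicate 1 alone (-1.11, 0.00608).

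The sum of the mesenchymal markers was lower at each dose, and TWIST1 RNA passed as lower at 150, 200 and 500 nM. TWIST1 fell by 0.71 at 150 nM (limma, adjusted p = 0.0238), 0.85 at 200 nM (0.00711) and 1.22 at 500 nM (0.000338). At 100 nM its change of -0.32 did not pass (SE 0.23, adjusted p = 0.328). Neither did its change from 100 to 150 nM (-0.39, SE 0.23, adjusted p = 0.982), while that from 100 to 500 nM passed (limma, -0.90, SE 0.23, adjusted p = 0.0149). The summed mesenchymal markers were 24230 to 28720 CPM in DMSO libraries, 7506 to 16180 CPM at 100 nM and 5801 to 7894 CPM at 500 nM. The 6 epithelial markers summed to 2.81 to 3.23 CPM in DMSO and 7.58 to 12.03 CPM at 500 nM. Their part in the results for the matrix genes was not tested.

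**Figure D3:**
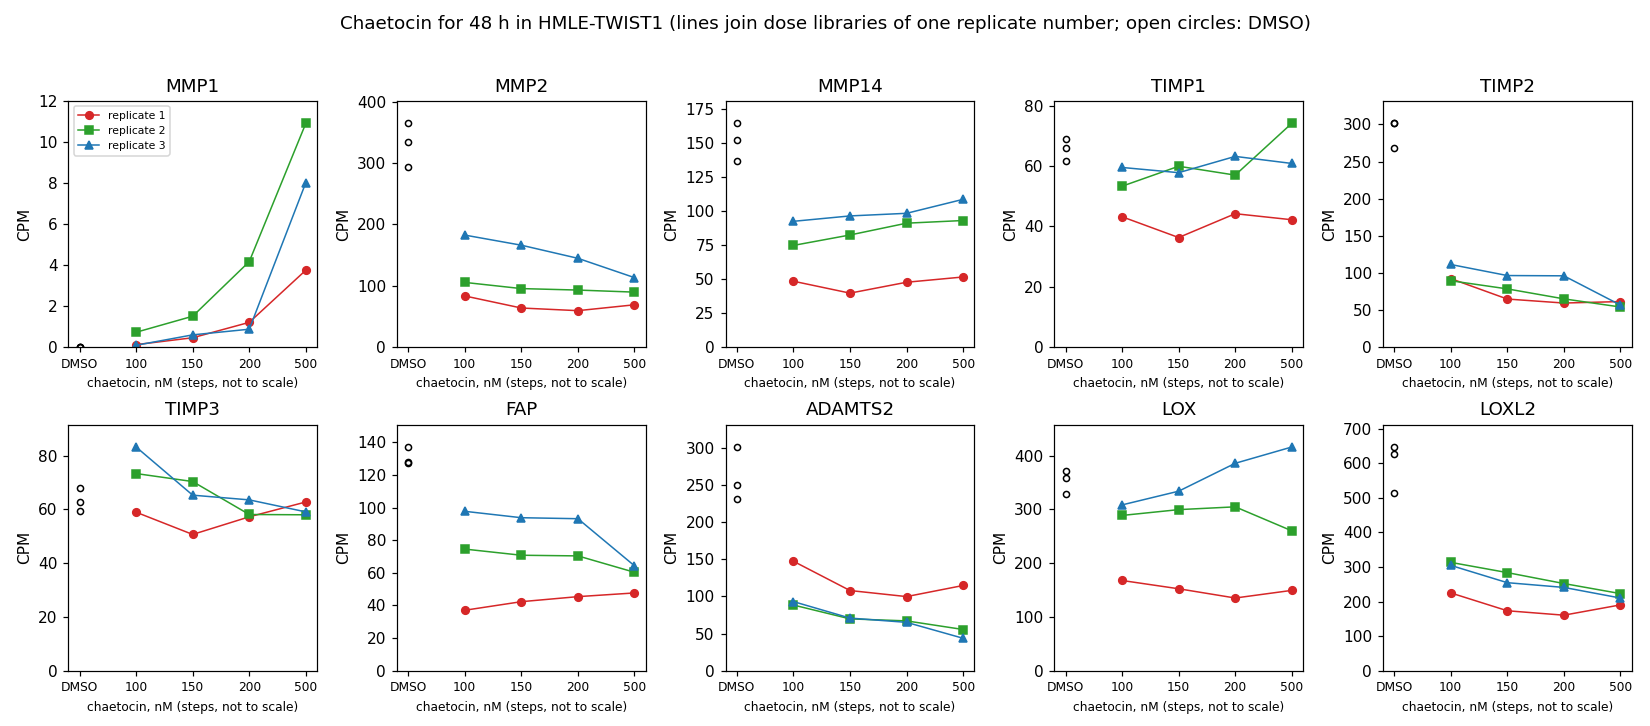
Level (CPM, vertical axis from 0) in HMLE-TWIST1 cells after DMSO (open circles) or 48 h of chaetocin at 100, 150, 200 and 500 nM (horizontal steps, not to scale), with a line for each replicate number. TIMP2 reaches 53.9 to 61.2 CPM at 500 nM from 269 to 302 in DMSO, MMP1 rises from 0, and replicate 1 runs below the others for LOX, MMP14 and FAP.

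After 15 h of 80 nM chaetocin and 48 h without it, MMP2, MMP14, TIMP2, FAP, ADAMTS2 and LOXL2 were lower than in DMSO cells of the same day and the same part of the table. MMP1 was higher, so 1 member was higher and 6 lower of 10 (36.5% of all genes passed, 18.2% as lower), with a median of -0.82 beside -0.01 over all genes. ADAMTS2 held 82.3, 78.5 and 78.0 CPM against 301, 229 and 281 in DMSO (-1.75, SE 0.19, adjusted p = 2.2e-05). MMP14 held 65.8, 68.3 and 79.5 CPM against 145, 159 and 173 (-1.16, SE 0.08, adjusted p = 2.02e-07). Neither gene's groups overlapped.

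The log2 fold changes of the others that fell were -1.33 for MMP2 (SE 0.21, adjusted p = 0.00129), -1.20 for TIMP2 (SE 0.09, adjusted p = 3.1e-07), -0.86 for FAP (SE 0.13, adjusted p = 0.000439) and -0.79 for LOXL2 (SE 0.09, adjusted p = 2.67e-05). MMP1 had 6, 4 and 12 reads against 0, which is 5.94-fold over a floor of 3 reads (limma, adjusted p = 0.00792). It passed the read filter of this fit only through 80 nM replicate 3 and HMLE DMSO replicates 2 and 3. The HMLE libraries are outside this comparison, so this p-value is no separate support for the rise. TIMP1 (-0.04, SE 0.17, adjusted p = 0.885), TIMP3 (0.39, SE 0.26, adjusted p = 0.298) and LOX (-0.26, SE 0.25, adjusted p = 0.465) did not pass, and their groups overlapped. Here TWIST1 was at 0.33 (SE 0.16, adjusted p = 0.146) and the mesenchymal markers summed to 12470 to 18670 CPM against 23770 to 29930 in DMSO.

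Knockdown of SUV39H1 and SUV39H2 was compared with scramble in each line and at each day. LOX fell in all 4 comparisons and MMP2 in 3, while the TIMP genes and FAP depended on line and day. In HMLE at day 2, 0 members were higher and 6 lower of 9 tested (29.1% of all genes passed). In HMLE-TWIST1 at day 2 the counts were 1 and 3 of 9 (15.3%), in HMLE at day 4 they were 2 and 3 of 10 (26.1%), and in HMLE-TWIST1 at day 4 they were 2 and 5 of 10 (37.8%).

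LOX had the fall seen in every comparison. In HMLE at day 2 it held 188, 232 and 188 CPM after knockdown against 421, 499 and 431 in scramble (-1.15, SE 0.09, adjusted p = 8.1e-07, n = 3 libraries per group). In HMLE-TWIST1 it also fell, with -0.67 at day 2 (SE 0.09, adjusted p = 0.000188) and -0.75 at day 4 (SE 0.08, adjusted p = 1.45e-06), to 159, 159.5 and 149 CPM from 258, 269 and 257. In HMLE at day 4 the change was -0.29 (SE 0.08, adjusted p = 0.0136), lost without scramble replicate 1 (0.0761) or knockdown replicate 1 (0.0693) or 2 (0.0656). LOXL2 fell in HMLE at day 2 (-0.51, SE 0.07, adjusted p = 1.25e-05) and in HMLE-TWIST1 at day 2 (-0.23, SE 0.07, adjusted p = 0.0212). The latter was lost without scramble replicate 1 (0.119) or 2 (0.0752) or knockdown replicate 2 (0.0743). At day 4 LOXL2 passed in neither line (-0.11 and -0.09).

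TIMP3 moved in opposite directions in the lines. In HMLE-TWIST1 at day 4 TIMP3 held 287, 288 and 305 CPM in scramble and 84.4, 89.7 and 96.1 CPM after knockdown (-1.70, SE 0.06, adjusted p = 3.46e-13). In HMLE at day 4 it was higher after knockdown (0.23, SE 0.06, adjusted p = 0.0104), at 793, 708 and 826.5 CPM against 636, 692 and 646. The effect in HMLE-TWIST1 minus that in HMLE was -1.94 (SE 0.09, adjusted p = 2.21e-10), with 5 members (1 positive, 4 negative) and 22.6% of all genes passing that test. At day 2 the signs were the other way round, with TIMP3 lower in HMLE (-0.51, SE 0.05, adjusted p = 1.29e-06) and higher in HMLE-TWIST1 (0.22, SE 0.05, adjusted p = 0.00902, lost without scramble replicate 3 at 0.0515). The difference between lines at day 2 was 0.73 (SE 0.08, adjusted p = 8e-06), where 4 members and 12.1% of all genes passed.

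TIMP1 was higher than in scramble at day 4 in both lines. It held 5.97, 5.62 and 5.26 CPM against 3.42, 3.41 and 2.93 in HMLE (0.76, SE 0.11, adjusted p = 5.04e-05). In HMLE-TWIST1 it held 50.9, 45.0 and 50.7 CPM against 29.6, 25.8 and 26.5 (0.84, SE 0.11, adjusted p = 9.5e-06). The difference of these effects was 0.07 (SE 0.16, adjusted p = 0.783). At day 2 TIMP1 passed in neither line (0.10 and -0.20). TIMP2 fell in HMLE at day 2 (-0.30, SE 0.07, adjusted p = 0.00184) and in HMLE-TWIST1 at day 4 (-0.52, SE 0.06, adjusted p = 1.55e-06), to 147.5, 148 and 149 CPM from 218, 206 and 214.

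FAP fell in 1 of the 4 comparisons, HMLE-TWIST1 at day 4, to 22.7, 23.0 and 25.9 CPM from 69.0, 76.8 and 80.5 (-1.65, SE 0.10, adjusted p = 3.46e-10). All 3 libraries then lay below those of HMLE scramble cells of the same day, at 30.8, 26.6 and 26.0 CPM. The effect minus that in HMLE was -1.53 (SE 0.14, adjusted p = 7.23e-07), and minus that of day 2 in the same line it was -1.43 (SE 0.16, adjusted p = 1.39e-07). In the 2 tests of day 4 against day 2, 8 members passed in HMLE (7 positive, 1 negative, 17.1% of all genes) and 4 in HMLE-TWIST1 (1 and 3, 19.4% of all genes). TIMP3 had opposite signs in them, at 0.74 (SE 0.08) in HMLE and -1.92 (SE 0.08, adjusted p = 1.24e-15) in HMLE-TWIST1.

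MMP2 fell by 1.08 in HMLE at day 2 (SE 0.12, adjusted p = 1.27e-05), to 11.0, 9.82 and 14.6 CPM from 21.8, 26.6 and 25.9. It fell in HMLE at day 4 (-0.57, SE 0.08, adjusted p = 6.3e-05) and in HMLE-TWIST1 at day 4 (-0.35, SE 0.08, adjusted p = 0.00342). In HMLE-TWIST1 at day 2 its groups did not overlap, at 291, 265 and 285.5 CPM against 333, 324 and 331, but the change of -0.23 missed the threshold (SE 0.12, adjusted p = 0.22) and passed with precision weights (0.0069) and with only these groups in the fit (0.00419). MMP14 fell in HMLE at day 2 (-0.30, SE 0.06, adjusted p = 0.000843) and rose in HMLE-TWIST1 at day 4 (0.23, SE 0.06, adjusted p = 0.00853).

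MMP1 in HMLE at day 4 fell from 209, 225 and 193 reads to 44, 57 and 88 (-1.82, SE 0.27, adjusted p = 5.85e-05), and stayed at 0 reads in every knockdown library of HMLE-TWIST1. ADAMTS2 likewise had 0 reads in every knockdown library of HMLE. In HMLE-TWIST1 ADAMTS2 fell at day 2 (-0.47, SE 0.12, adjusted p = 0.0102), to 263.5, 265 and 272 CPM from 376, 366.5 and 362. That call was lost with a prior count of 0.5 (0.0564) and without any 1 of the 3 scramble libraries or of knockdown replicates 1 and 2 (0.0617 to 0.0799), although the groups did not overlap. At day 4 its change of -0.18 did not pass (SE 0.13, adjusted p = 0.27; 0.00275 with precision weights and 0.00138 with only these groups in the fit).

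TWIST1 also fell with knockdown in 3 of the 4 comparisons. Its change was -0.48 (SE 0.09, adjusted p = 0.00148) at day 2 and -0.47 (SE 0.09, adjusted p = 0.00029) at day 4 in HMLE-TWIST1, and -0.595 (SE 0.09, adjusted p = 0.000113) in HMLE at day 2, where 6 members fell. It did not pass in HMLE at day 4 (0.155, SE 0.09, adjusted p = 0.206). The mesenchymal markers of HMLE-TWIST1 summed to 21160 to 22360 CPM after knockdown at day 2 against 28300 to 30020 in scramble, and to 9200 to 9388 CPM at day 4 against 18760 to 20400. The epithelial markers of HMLE at day 2 summed to 6828 to 7383 CPM after knockdown against 11580 to 12110 in scramble, and the mesenchymal markers to 754.7 to 797.8 CPM against 963.6 to 1122. The epithelial sums in HMLE at day 4 were 7905 to 8854 against 6568 to 7527 CPM, and the mesenchymal sums overlapped. Their part in the results was not tested.

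**Figure D4:**
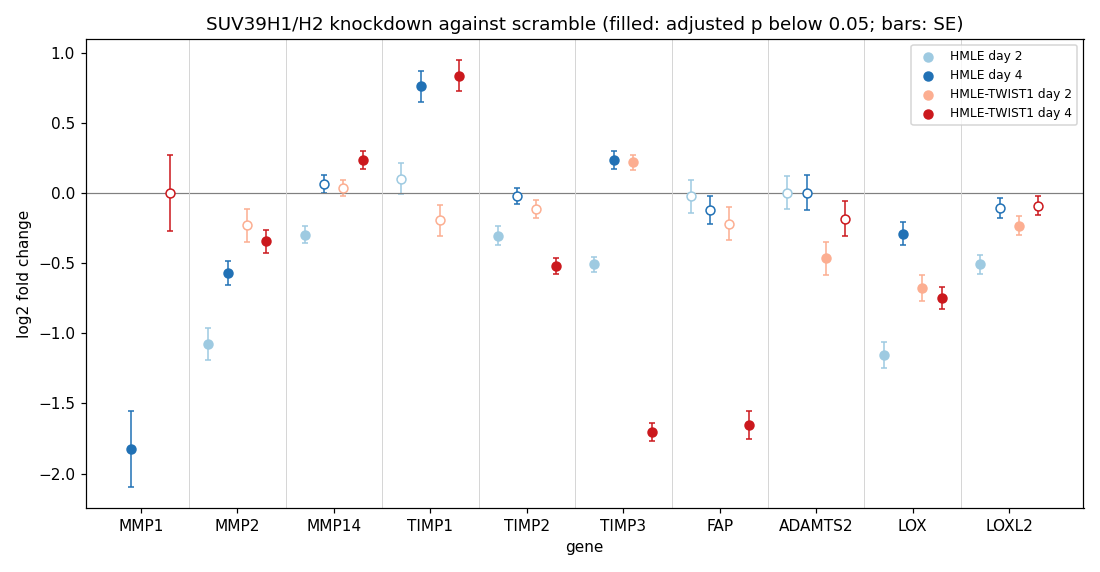
Log2 fold change (vertical axis) of knockdown over scramble for each gene, in HMLE (blue) and HMLE-TWIST1 (red) at day 2 (light) and day 4 (dark), with the SE of the fit as bars and filled points where the adjusted p is below 0.05; MMP1 has no value at day 2. TIMP3 and FAP in HMLE-TWIST1 at day 4 stand at -1.70 and -1.65, and LOX is below 0 in all 4 comparisons.

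The control cells themselves differed between days. In HMLE-TWIST1 scramble cells, 2 members were higher and 7 lower at day 4 than at day 2 (28.6% of all genes passed). TIMP3 rose from 79.7, 75.8 and 74.6 CPM to 287, 288 and 305 CPM (1.93, SE 0.06, adjusted p = 1.02e-19), and TIMP1 fell from 65.8, 55.5 and 63.0 to 29.6, 25.8 and 26.5 CPM (-1.16, SE 0.11, adjusted p = 1.9e-09). The TIMP3 level after knockdown at day 4, 84.4 to 96.1 CPM, was thus close to the 87.5 to 90.6 CPM of knockdown cells of day 2. TIMP1 in knockdown cells stood at 49.9 to 59.05 CPM at day 2 and 45.0 to 50.9 CPM at day 4, without the fall seen in scramble. In scramble MMP2 (-0.60), LOXL2 (-0.73), LOX (-0.53), ADAMTS2 (-0.45), FAP (-0.35) and TIMP2 (-0.22) were also lower at day 4, and MMP14 higher (0.19). The FAP call was lost without scramble day 2 replicate 2 (0.074) or day 4 replicate 1 (0.0991), and that of MMP14 without any 1 of 5 of the 6 libraries, all but day 2 replicate 1 (0.0505 to 0.0685).

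In HMLE scramble cells 3 members were higher and 2 lower at day 4 (42.2% of all genes passed). MMP1 rose from 13 reads in the group to 627 (5.32, SE 0.30, adjusted p = 2.74e-14), MMP14 rose by 0.64 and TIMP2 by 0.89, while LOXL2 fell by 1.55 (SE 0.07, adjusted p = 2.36e-16), from 310.0, 379 and 343 CPM to 126, 117 and 109. TIMP1 was lower (-0.49, adjusted p = 0.000518), a call lost with precision weights (0.0766) and with only these groups in the fit (0.0531). The marker sums moved with the day too. From day 2 to day 4 of scramble, HMLE epithelial sums went from 11580 to 12110 CPM down to 6568 to 7527 CPM, HMLE mesenchymal sums from 963.6 to 1122 CPM up to 2478 to 2959 CPM, and HMLE-TWIST1 mesenchymal sums from 28300 to 30020 CPM down to 18760 to 20400 CPM. TWIST1 fell by 0.96 in HMLE (adjusted p = 1.67e-09) and by 0.35 in HMLE-TWIST1 (adjusted p = 0.00435), and the part of these shifts in the results was not tested. In DMSO the days also differ in exposure. There 7 of the 9 members tested were higher at day 4 in HMLE and 1 was lower (35.2% of all genes), led by LOX (1.32, SE 0.27, adjusted p = 0.0045), TIMP3 (1.15, SE 0.25, adjusted p = 0.0054) and TIMP2 (0.98, SE 0.09, adjusted p = 4.5e-07). FAP (0.44, adjusted p = 0.0101) was lost without HMLE DMSO day 2 replicate 3 (0.0565). In HMLE-TWIST1 0 of 9 members passed between the DMSO days, where limma called 0.343% of all genes and 2265 had an unadjusted p below 0.05.

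A wider list of 73 matrix proteases, inhibitors and modifying enzymes, without the 10 members, put these changes beside their pathway. Of 55 tested at 500 nM, 14 were higher and 21 lower (median -0.17, beside 0.05 over all genes, of which 50.2% passed). Of 52 tested after washout 8 were higher and 25 lower (median -0.37 beside -0.01, with 36.5% of all genes passing). PLOD1, a lysyl hydroxylase of collagen, had log2 fold changes of -1.43 (SE 0.095, adjusted p = 3.73e-08) at 500 nM and -0.98 after washout. RECK, a membrane inhibitor of metalloproteinases, stood at -2.73 and -1.55, and ADAMTS1, a secreted metalloproteinase, at -2.77 and -1.48, all past the threshold. SERPINE2, a serine protease inhibitor, rose at 500 nM by 2.19 (SE 0.18, adjusted p = 1.71e-07).

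Between the lines in scramble at day 4, 26 of 54 pathway genes were higher and 23 lower in HMLE-TWIST1, where 74.4% of all genes passed. RECK was higher by 3.72 (SE 0.096) and MMP7, the metalloproteinase matrilysin, was lower (-5.35, SE 0.11, adjusted p = 3.35e-18). PCOLCE, which enhances the removal of the other procollagen propeptide, was higher by 7.46 (SE 0.27) in DMSO at day 2, where 28 of 55 were higher and 14 lower (47.2% of all genes passed). Knockdown in HMLE-TWIST1 at day 4 gave 18 higher and 12 lower of 54 (37.8%). ADAM19, a membrane metalloproteinase, was among those higher (1.24, SE 0.087, adjusted p = 3.04e-09), as were PLOD1 (0.90) and P4HA1, a prolyl hydroxylase of collagen (0.70). MMP13, a collagenase, also passed, with 45 reads against 1. In HMLE at day 4 the counts were 14 and 9 of 54 (26.1%). In scramble cells of HMLE-TWIST1 4 of 55 were higher and 21 lower at day 4 than at day 2 (28.6%). PLOD1 (-0.90) and P4HA1 (-1.08) were among the lower.

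Across the 17 group means of log2 CPM, the genes whose pattern was most like each member were found among 11845 candidates, as a description of groups that share libraries and line. ADAMTS2 was closest to COL5A1 (Pearson r = 0.998), a collagen chain, and to PCOLCE (0.998). TIMP1 was closest to FADS2 (0.990) and EMP3 (0.987), MMP2 to CALU (0.984) and GALNT10 (0.983), and TIMP3 to MKNK2 (0.976) and SLC22A15 (0.973). MMP14 was closest to CC2D1B (0.972) and SOS2 (0.971), MMP1 to CCDC93 (0.968) and C2CD2L (0.951), TIMP2 to ITGAV (0.960) and MRC2 (0.952), and LOXL2 to S100A6 (0.955) and LMAN1 (0.950). The lowest values were those of FAP, with SYAP1 (0.943) and GS1-44D20.1 (0.934), and of LOX, with SEMA5A (0.894) and CSPG4 (0.852). Among the members themselves, r was highest for ADAMTS2 with TIMP1 (0.961) and MMP2 (0.956) and lowest for TIMP1 with TIMP3 (-0.958), each over 17 groups.

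Genes that overlap a member can affect its count. For genes on the opposite strand this depends on the strand setting of the counting, which is not given in the sources used here. Overlaps were taken from the GENCODE annotation of GRCh38, a different build from that of the reads. SRFBP1, on the strand opposite LOX, had group means of 43.3 to 112.6 CPM, and ENTPD4, on the same strand as LOXL2, 56.8 to 100.6 CPM. WTAPP1, opposite MMP1, had 0.0977 to 0.436 CPM. SYN1, opposite TIMP1, and SYN3, opposite TIMP3, reached at most 0.823 and 1.13 CPM.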

How the data were processed

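RNA from 51 libraries was made with a stranded total RNA kit, per the labels' protocols. The submitters' processing notes name STAR, HTSeq and the build hg19, without versions. The authors deposited log2 RPKM values per gene (reads scaled to gene length and library size) in 3 separately processed parts, of 12, 15 and 24 libraries. Another table, with 81 value columns that carry no sample's name, was not used here.

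Each log2 RPKM value was turned back into reads, and 100.0% of values came out whole within 0.01. Scaling between libraries used trimmed means of log ratios (30% of ratios and 5% of levels trimmed). A gene was tested if it had about 10 reads, adjusted for depth, in 3 or more libraries and 15 in all. Log2 CPM with a prior count of 2 was tested with limma 3.58.1 (R 4.3.3, statmod 1.5.0) with an intensity trend and robust moderation, and p-values were adjusted by Benjamini-Hochberg over all genes tested, with a threshold of 0.05. The fits held 18 drug libraries of day 2, 9 of day 4, 12 duplex libraries for each day, 24 for both days and the 12 DMSO libraries. The procedure was tested on simulated data in the layout of the duplex libraries of day 2 only. That simulation had no shared replicate deviations and no separate parts, so it does not cover the dose comparisons. Intervals and floors of 3 reads cover counting error only. A floor covers only the group with 0 reads, and the reads of the other group are taken as exact.

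Named are the 10 members, up to 4 genes of a wider matrix list with the smallest adjusted p in a comparison, and for each member the 2 genes of highest Pearson r. Not every list gene that this rule takes is reported here. The members and lists were chosen with earlier results of these data known. Replicate numbers paired the 12 dose libraries, where all 18 same-number correlations of deviations from group means exceeded 0.1 (lowest 0.182, median 0.448, against -0.189 for other pairs). The 18 drug libraries of day 2 hold these dose libraries, and their fit as designed had no block. In the drug fit of day 4, 5 of 9 exceeded 0.1 (lowest 0.021, median 0.103, against -0.041 for other pairs). In the duplex and DMSO fits the medians were -0.033 to 0.051. Alternatives covered scaling, filter, prior count, precision weights, a replicate block, the groups in the fit, the deposited values and each library left out. Promoter windows are of GRCh38.p14, a different build from that of the reads.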

Additional observations from a re-analysis of the deposited data

Results flagged for a closer look

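The effect of SUV39H1 and SUV39H2 knockdown differed between lines or between days for several of the genes, by limma's test of the difference itself (Benjamini-Hochberg adjusted p below 0.05, 3 libraries per group). Values are differences of log2 fold changes.

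At day 2 the effect in HMLE-TWIST1 minus that in HMLE was 0.84 for MMP2, 0.33 for MMP14, 0.73 for TIMP3 and 0.48 for LOX. LOX missed the threshold in the deposited log2 RPKM (adjusted p = 0.0816) and without any 1 of 6 of the 12 libraries, namely HMLE scramble replicate 2 (0.0651), HMLE knockdown replicates 1 (0.0754) and 3 (0.0597), HMLE-TWIST1 scramble replicate 3 (0.0704) and HMLE-TWIST1 knockdown replicates 1 (0.065) and 2 (0.0665). MMP14 missed it in the deposited log2 RPKM (0.0513). At day 4 the difference between lines was 1.82 for MMP1, -0.50 for TIMP2, -1.94 for TIMP3, -1.53 for FAP and -0.46 for LOX. The MMP1 value sets a fall in HMLE against 0 reads in all HMLE-TWIST1 libraries, and it missed the threshold with precision weights (0.128).

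Between days in HMLE, the effect at day 4 minus that at day 2 was -1.54 for MMP1, 0.51 for MMP2, 0.36 for MMP14, 0.66 for TIMP1, 0.28 for TIMP2, 0.74 for TIMP3, 0.86 for LOX and 0.40 for LOXL2. MMP1 missed the threshold with a prior count of 0.5 (adjusted p = 0.108) and with precision weights (0.0717). TIMP1 missed it with precision weights (0.105) and with only the compared groups in the fit (0.0664). MMP2 was lost without scramble day 2 replicate 2 (0.0567), scramble day 4 replicate 3 (0.0561), knockdown day 2 replicate 1 (0.0562) or 2 (0.0665) or knockdown day 4 replicate 3 (0.0562), and with only the compared groups in the fit (0.0688). TIMP2 was lost without scramble day 2 replicate 2 (0.101), scramble day 4 replicate 1 (0.0956), knockdown day 2 replicate 1 (0.0606) or 2 (0.087), or knockdown day 4 replicate 1 (0.0534) or 3 (0.0555), with only the compared groups in the fit (0.0826) and in the deposited log2 RPKM (0.0693). In HMLE-TWIST1 the difference between days was 1.03 for TIMP1, -0.41 for TIMP2, -1.92 for TIMP3 and -1.43 for FAP.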

How the results depend on the processing

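No member changed direction past the threshold under any alternative run. With the 12 dose libraries alone and the replicate number as a block, added after seeing the data, 5 members passed from 100 to 500 nM (33.8% of all genes, against 16.6% in the fit as designed) and 1 from 200 to 500 nM (0.355%). With replicate 1 of every dose left out, also added after seeing the data, 4 passed from 100 to 500 nM (22.4% of all genes). Leaving out 1 library at a time gave 2 to 4 members for knockdown in HMLE-TWIST1 at day 2 (10.9% to 14.9% of all genes). In the deposited log2 RPKM 2 members passed when the knockdown effects of the lines were compared at day 2 (10.4% of all genes), and with only the compared groups in the fit 5 passed when those of the days were compared in HMLE (16.9%). The cause of these shifts was not tested. Fits that leave libraries out also hold fewer samples. The planned replicate block added ADAMTS2 from 100 to 500 nM (3 members, 24.2% of all genes) and LOX for scramble day 4 against day 2 in HMLE (adjusted p = 0.0494, 6 members, 41.7%), and changed no other call. Of the member values with 1 library left out, 1609 kept their side of the threshold, 77 lost it and 9 gained it. MMP1, and ADAMTS2 in HMLE, held 0 to a few reads in several groups, and their levels there were limited by depth. In HMLE-TWIST1, where its dose and knockdown calls shifted, ADAMTS2 held 457 to 5872 reads per library.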
